A study of Oryza sativa with 6 samples.

Results

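ASMT1, LIS and BGLU5 are 3 rice genes of specialised metabolism, the chemistry by which plants make indole hormones, scents and stored glycosides outside primary growth. They are followed here through shoot apices of wild-type (WT) plants and of the dwarf, slender-leaved mutant dsl1, in which a gene for a histone deacetylase is affected. They are 3 of the 15140 genes that could be measured by name. The 3 were chosen by their differences between dsl1 and WT on these same arrays, so those differences are given as a description with no test. Each was matched by a synonym in the rice gene reference, ASMT1 to LOC4346795 on chromosome 9, LIS to LOC4328124 on chromosome 2 and BGLU5 to LOC4326948 on chromosome 1. A single transcript cluster, a group of probes read as 1 transcript, stood for each of them.

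The study compared 3 WT samples with 3 dsl1 samples, all from soil-grown plants and dissected under a microscope. The apex held the meristem and the youngest leaf primordia, taken when the tip of the fifth leaf had just come out. The sources used here name neither the altered deacetylase gene nor the lesion nor the WT strain, so the mutated gene could not be checked. HDA703, the histone deacetylase matched by symbol, was in the dimmest 20% of clusters on all 6 arrays (WT 2.66, dsl1 2.64, limma adjusted p = 0.97). Total RNA from each sample was read on 1 single-colour Affymetrix whole-transcript array, and every value below is on the authors' log2 scale unless a fold is named. The labels do not say that replicates came from separate plants, so a p-value here reflects sample-to-sample spread that may be technical. The number of arrays limits the precision. A value written with ± is the mean and SD of the n = 3 arrays of a genotype.

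ASMT1 is an acetylserotonin O-methyltransferase, which adds the methyl group in the last step from serotonin to melatonin. Melatonin is made from tryptophan by way of tryptamine and serotonin, and SNAT enzymes supply its acetylated precursor. LIS is a linalool synthase, a terpene synthase that makes the scent compound linalool, which rice is known to release after herbivore attack and jasmonate treatment. BGLU5 belongs to the beta-glucosidases of glycoside hydrolase family 1, which cut a sugar from stored forms of hormones, defence compounds and cell wall precursors. Histone deacetylases remove acetyl groups from histones and are generally tied to repression of transcription.

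ASMT1 stood at 4.64, 6.66 and 4.89 in WT replicates 1, 2 and 3, and at 9.43, 10.06 and 8.32 in dsl1 replicates 1, 2 and 3. All dsl1 values were above all WT values, and the lowest dsl1 value was 1.66 above the highest WT value. WT replicate 2 lay apart from the other WT arrays, which made the WT range 2.02. The means were 5.40 ± 1.10 in WT against 9.27 ± 0.884 in dsl1, a difference of 3.87 (SE 0.628), or 14.7-fold. By size this was the 4th largest difference among the 15140 genes. The spread was large too: its SD exceeded that of 99.5% of genes within WT and was at the 99.3 percentile within dsl1. Without WT replicate 2 the difference was 4.50, and without dsl1 replicate 2 it was 3.48.

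LIS stood at 4.07, 4.46 and 5.29 in WT replicates 1, 2 and 3. In dsl1 replicates 1, 2 and 3 it stood at 6.39, 6.99 and 6.59. The groups did not overlap, with a gap of 1.10 between the highest WT array, replicate 3, and the lowest dsl1 array, replicate 1. The mean was 4.61 ± 0.623 in WT against 6.66 ± 0.302 in dsl1, a difference of 2.05 (SE 0.323), or 4.14-fold. With 1 array left out the difference lay between 1.78, without WT replicate 1, and 2.39, without WT replicate 3.

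BGLU5 had the tightest WT values of the 3 genes, at 6.10, 6.0 and 6.23 in replicates 1, 2 and 3. Its dsl1 values were 4.53, 4.23 and 4.86, all below every WT value with a gap of 1.14. The mean was 6.11 ± 0.116 in WT against 4.54 ± 0.314 in dsl1, a difference of -1.57 (SE 0.185). BGLU5 was thus 2.97-fold lower in dsl1, and it was number 23 from the most negative difference among the 15140 genes. Leaving out 1 array moved the difference between -1.73 and -1.42. The level of each of the 3 genes was above that of the dimmest 20% of clusters on all 6 arrays, a level of 3.62 to 3.70.

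**Figure D1:**
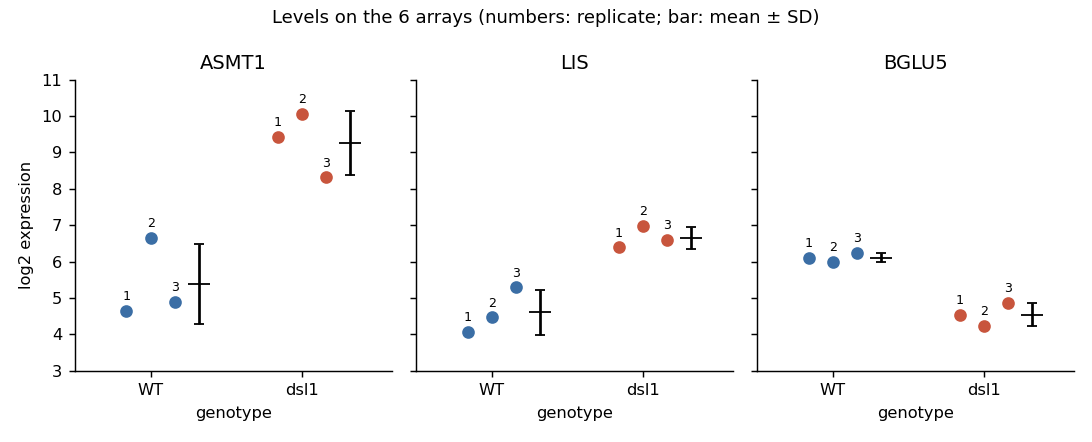
Log2 expression of ASMT1, LIS and BGLU5 (vertical axis) in WT and dsl1 (horizontal axis). Each point is 1 array with its replicate number, and the bar is the mean with its SD. The groups do not overlap for any of the 3 genes, and WT replicate 2 stands at 6.66 for ASMT1, above the other WT arrays.

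Groups that do not overlap were common on these arrays. Of the 15140 genes, 15.0% had all dsl1 values above all WT values and 9.33% had them all below. At an unadjusted p under 0.05 in limma, 9.46% of genes were higher and 5.52% lower in dsl1. Over all 54922 clusters, 8 were called higher (0.0146%) and 6 lower (0.0109%) at an adjusted p under 0.05 in limma. Of the 3 genes described here 0 were among those called and 3 were at an unadjusted p under 0.05, and nothing is read from these counts because the same contrast chose the genes. In a bulk sample, a change in the number of cells that use a gene and a change in RNA per cell cannot be told apart.

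The order of the replicates differed between the 3 genes. Within WT, ASMT1 was highest in replicate 2, while LIS and BGLU5 were highest in replicate 3. Within dsl1, replicate 2 was the highest array for both ASMT1 and LIS and the lowest for BGLU5.

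The rest of the melatonin route was read through few genes. Of its 7 genes matched by name in the reference, 3 were measured: ASMT1, its relative ASMT3 and the acetyltransferase SNAT2. The other 4 were not analysed here. SNAT2 stood at 8.32 ± 0.206 in WT against 8.23 ± 0.271 in dsl1 (limma adjusted p = 0.878), and the groups overlapped. ASMT3, on chromosome 10, stood at 3.75 ± 0.603 and 3.91 ± 0.916 in WT and dsl1 (adjusted p = 0.926), with 2 of the 6 arrays in the dimmest 20%. The differences were -0.092 (SE 0.187) for SNAT2 and 0.16 (SE 0.493) for ASMT3. The difference between ASMT1 and these genes was not tested.

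Upstream, tryptophan is made by way of anthranilate synthase. Its subunit genes ASA2 and ASB1 differed by -0.16 and -0.14, with limma adjusted p of 0.829 and 0.813. The O-methyltransferase family, which shares the methyl transfer chemistry of ASMT1, had 1 other measured member matched by name besides ASMT3. This was ROMT-17, at 7.25 ± 0.0712 in WT against 6.92 ± 0.296 in dsl1. The ROMT-17 values did not overlap, being lower in dsl1, as held for 9.33% of all genes. The difference of -0.32 did not pass the limma test (adjusted p = 0.511).

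LIS is 1 of 8 measured terpene synthases that were matched by name, and terpene synthases without such a name were not looked at. The others listed belong to the diterpenoid branch that leads to gibberellins and phytoalexins. Among those 7, 5 were higher (71.4%, against 53.0% of all genes) and 2 lower in dsl1, with 0 called in either direction in limma. An unadjusted p under 0.05 was reached by 2 on the higher side and 0 on the lower, 28.6% against 9.46% of all genes in the higher direction. Groups did not overlap in 1 on the higher side (14.3%, against 15.0% of all genes) and in 0 on the lower side (against 9.33%). Their median difference was 0.094, against 0.019 over the 15140 genes, and it lay between 0.064 without dsl1 replicate 2 and 0.272 without dsl1 replicate 1. With LIS included the median was 0.20.

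CPS4, which makes the syn-copalyl diphosphate of momilactone phytoalexins, stood at 3.66, 4.21 and 4.58 in WT replicates 1, 2 and 3. In dsl1 it stood at 5.81, 5.21 and 4.77, all above the WT values. The difference was 1.11 (SE 0.326, limma adjusted p = 0.323), the largest in the list after LIS. KSL7, a synthase of the phytocassane branch, differed by 0.52 (adjusted p = 0.421), and 1 WT value overlapped the dsl1 range. CPS1, which acts in gibberellin synthesis, differed by 0.30 and CPS2, of the phytoalexin branch, by -0.23, with limma adjusted p of 0.64 and 0.665. CPS4 was in the dimmest 20% of clusters on 1 array. KSL3, KSL6 and KSL10 lay in the dimmest 20% on 5 or 6 of the 6 arrays, and their differences were -0.15 to 0.094.

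Linalool is built from a prenyl diphosphate made in the plastid, and a separate route in the cytosol passes through HMG-CoA reductase. In the precursor list 4 genes were measured and 0 were called in limma, with 0 at an unadjusted p under 0.05. The plastid genes DXR, ISPG and CMS differed by 0.19, 0.14 and -0.30, with limma adjusted p of 0.706, 0.68 and 0.606. ISPG, higher in dsl1, had groups that did not overlap, though its difference was small. It was the only 1 of the 4 (25.0%, against 15.0% of all genes on the higher side). HMGR3, the HMG-CoA reductase measured, stood at 7.35 ± 0.267 in WT against 7.94 ± 0.505 in dsl1 (limma adjusted p = 0.464). A false match, a molybdenum cofactor gene that shares the synonym MCS, was dropped from this list.

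LIS is known in rice as a gene that jasmonate raises, so the jasmonate list was set beside it. Of 14 measured jasmonate synthesis and response genes, 12 were higher and 2 lower, or 85.7% higher against 53.0% of all genes. None was called in limma. An unadjusted p under 0.05 was reached by 3 on the higher side (21.4%, against 9.46%) and by 1 on the lower side (7.14%, against 5.52%). Groups did not overlap in 2 on the higher side (14.3%, against 15.0% of all genes) and in 1 on the lower side (7.14%, against 9.33%). Their median difference was 0.42, and 0.68 without WT replicate 3. The jasmonate-inducible factor JAMYB averaged 4.14 ± 0.549 in WT against 6.49 ± 0.267 in dsl1 (limma adjusted p = 0.11), and its groups did not overlap. The jasmonate repressor genes JAZ4 and JAZ6 differed by 0.56 and 0.98, with limma adjusted p of 0.311 and 0.387. LOC4329684, listed as both OPR7 and OPR8 of the oxophytodienoate reductase family, differed by -0.54 (adjusted p = 0.388). LOC4345762, the other gene listed as OPR7, was 7.69 ± 0.432 in WT against 8.19 ± 0.109 in dsl1, a difference of 0.50 in the opposite direction (limma adjusted p = 0.45).

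WT replicate 3 was the highest WT array for 12 of these 14 genes, as it was for LIS. The share of all genes for which this holds was not counted. The mean level of the list on WT replicates 1, 2 and 3 was 6.72, 6.66 and 7.36. On dsl1 replicates 1, 2 and 3 it was 7.43, 7.60 and 7.33. WT replicate 3 thus lay within the dsl1 range for the list as a whole, while its LIS value of 5.29 lay below every dsl1 value. The part of this array's jasmonate level in the WT spread of LIS was not tested.

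**Figure D2:**
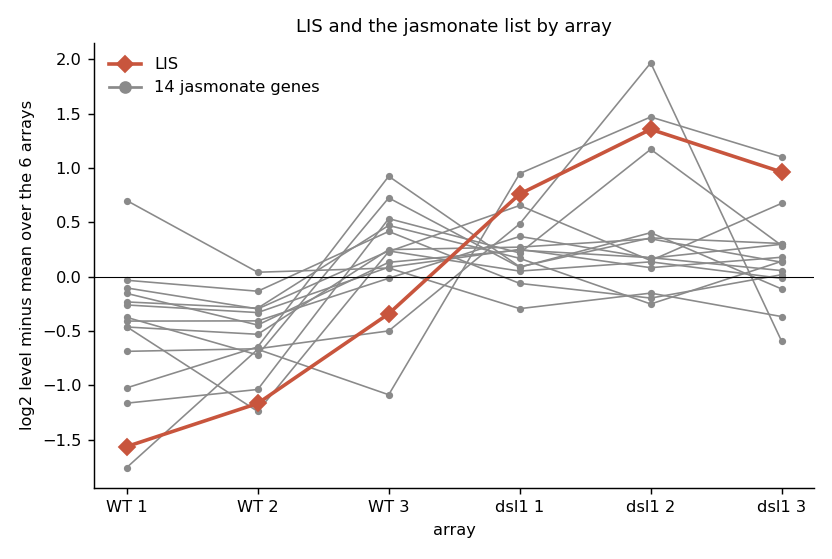
Log2 level of LIS and of the 14 jasmonate genes on each array, minus the gene's own mean over the 6 arrays (vertical axis), by array (horizontal axis). Lines only join the points of 1 gene. WT replicate 3 is the highest WT array for LIS and for 12 of the 14 genes.

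The difference of BGLU5 was opposite in sign to that of most measured members of its family. Of the 31 beta-glucosidase genes matched by name in the reference, 18 were measured. Of the 17 besides BGLU5, 12 were higher in dsl1 (70.6%, against 53.0% of all genes) and 5 lower. None was called in limma over all clusters. On the higher side 7 had an unadjusted p under 0.05 (41.2%, against 9.46% of all genes), and on the lower side 1 had one (5.88%, against 5.52%). Groups did not overlap in 8 of the 17 on the higher side (47.1%, against 15.0%) and in 1 on the lower side (5.88%, against 9.33%). BGLU24, counted among both the 7 and the 8, was in the dimmest 20% of clusters on all 6 arrays. BGLU20, among the 5 lower, was there on 4 arrays. The median difference of the 17 was 0.39, against 0.019 over all genes, and 0.22 without dsl1 replicate 1. No test of the family as a whole was made.

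BGLU5 had the only difference below -1 among the 18, and the next lowest was BGLU3 on the same chromosome. BGLU3 stood at 6.0, 5.94 and 6.02 in WT and at 5.75, 5.52 and 5.55 in dsl1, with no overlap. Its difference was -0.38 (SE 0.126, limma adjusted p = 0.357). At the other end was BGLU36, also listed as SFR2, known in Arabidopsis as a galactolipid-remodelling enzyme of freezing tolerance. BGLU36 stood at 6.96, 6.96 and 6.26 in WT replicates 1, 2 and 3 and at 7.98, 7.67 and 8.02 in dsl1. It was 2.24-fold higher in dsl1 without passing the limma test (adjusted p = 0.226).

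BGLU12, an enzyme known to release tuberonic acid from its glucoside, differed by 0.64, from 7.58 ± 0.0447 to 8.22 ± 0.336 (limma adjusted p = 0.317). BGLU25 differed by 0.50 (adjusted p = 0.333), and its groups did not overlap. BGLU31, a transglucosidase, and BGLU6, which acts on gibberellin glucosides in vitro, differed by 0.46 and 0.39, with limma adjusted p of 0.381 and 0.464. BGLU7, an enzyme of cell wall oligosaccharides, differed by -0.091 (adjusted p = 0.844). BGLU6, BGLU7 and BGLU31 were named after their values were seen. The remaining 10, BGLU20 and BGLU24 among them, ranged from -0.32 to 0.56. Probe sequences were not used here, so how far probes of 1 family member read another is not known.

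**Figure D3:**
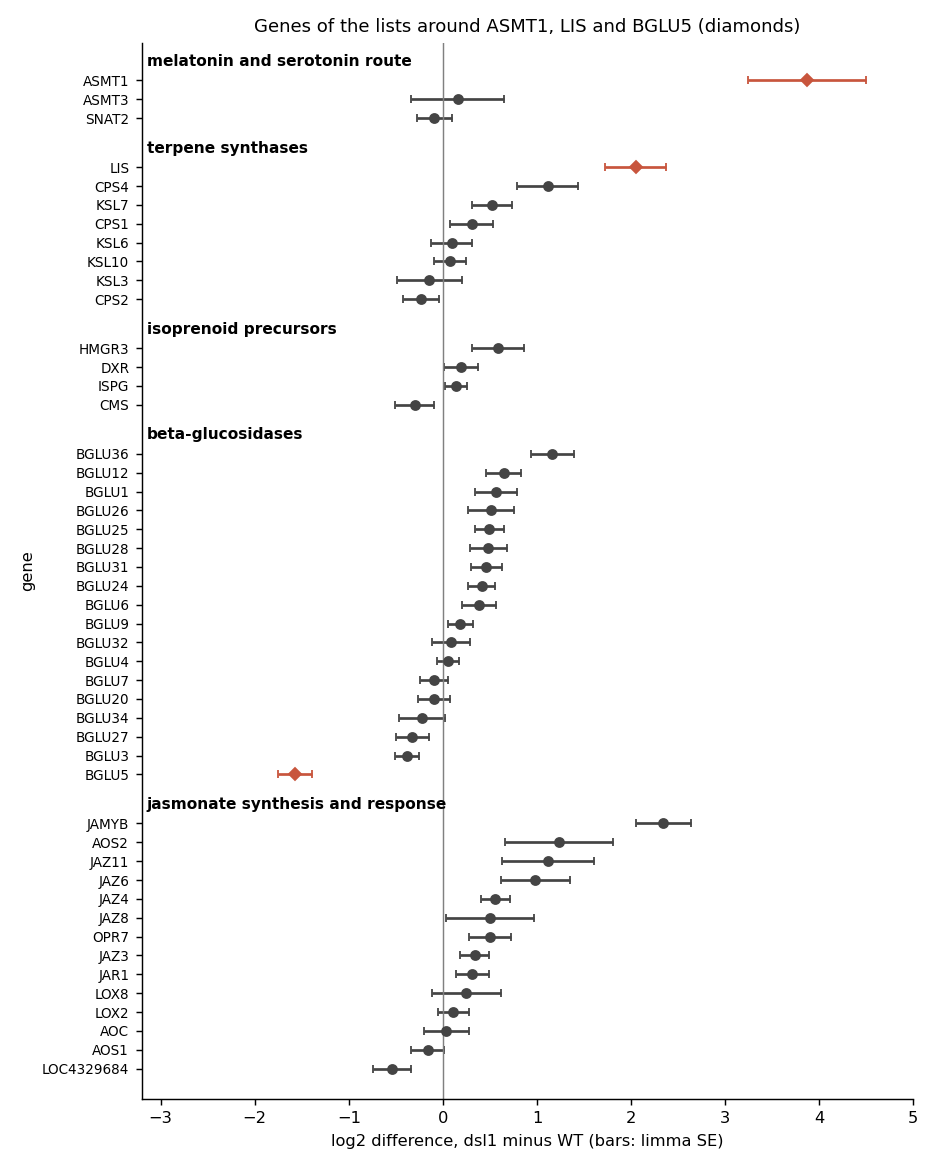
Log2 difference between dsl1 and WT (horizontal axis, bars are the limma SE, n = 3 each) for each measured gene (vertical axis) of 5 lists, with ASMT1, LIS and BGLU5 as diamonds. ASMT1 lies at 3.87 beside ASMT3 and SNAT2 near 0, and BGLU5 at -1.57 below all other beta-glucosidases listed.

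Another branch of specialised metabolism, the phenylpropanoid route, had 3 measured genes that were matched by name. The 4-coumarate ligase genes 4CL3 and 4CL4 differed by 0.61 and -0.33, each with groups that did not overlap, and with limma adjusted p of 0.311 and 0.423. That is 33.3% of the 3 genes on each side, against 15.0% of all genes higher and 9.33% lower. The same 2 genes had an unadjusted p under 0.05 in limma, against 9.46% of all genes higher and 5.52% lower. With so few genes nothing is read from these shares. PAL, the phenylalanine ammonia-lyase that opens the route, differed by -0.078 (adjusted p = 0.855). Its cluster number lies among those of chromosome 7 while the reference puts the gene on chromosome 2, so the name is uncertain.

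Each of the 3 genes was also set beside its neighbours on the chromosome, for which only the gene order of the reference was used. Around ASMT1, the 6 nearest measured genes, 3 on each side, differed by -0.087 to 0.50. All 6 overlapped between genotypes, and 0 had an unadjusted p under 0.05 in limma. LOC4346794 and LOC4346796, directly on either side of ASMT1, differed by 0.058 and -0.087.

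Around LIS the 6 nearest measured genes differed by -0.79 to 0.046, against 2.05 for LIS. LOC4328122 stood at 9.52 in WT and 8.73 in dsl1 (limma adjusted p = 0.247). SDH3-1, a succinate dehydrogenase subunit gene directly beside LIS, stood at 7.84 and 7.52 (adjusted p = 0.408). In both the dsl1 values lay below all WT values.

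Around BGLU5 the differences ran from -0.60 to 0.98 in the 6 nearest measured genes. HAK5, a potassium transporter gene 2 genes away, stood at 4.59 in WT and 5.57 in dsl1 (difference 0.98, SE 0.145, limma adjusted p = 0.162), opposite in direction to BGLU5. LOC4326944, 1 gene farther on the same side, differed by -0.60 (adjusted p = 0.339). HAK6, also a potassium transporter gene and the farthest of the 6, differed by -0.085. The 18 neighbours held 0 called genes in limma, and 0, 2 and 2 around ASMT1, LIS and BGLU5 had an unadjusted p under 0.05. Of these, 1 was higher (5.56%, against 9.46% of all genes) and 3 were lower (16.7%, against 5.52%). The same 4 genes had groups that did not overlap, against 15.0% and 9.33% of all genes on the higher and lower sides.

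**Figure D4:**
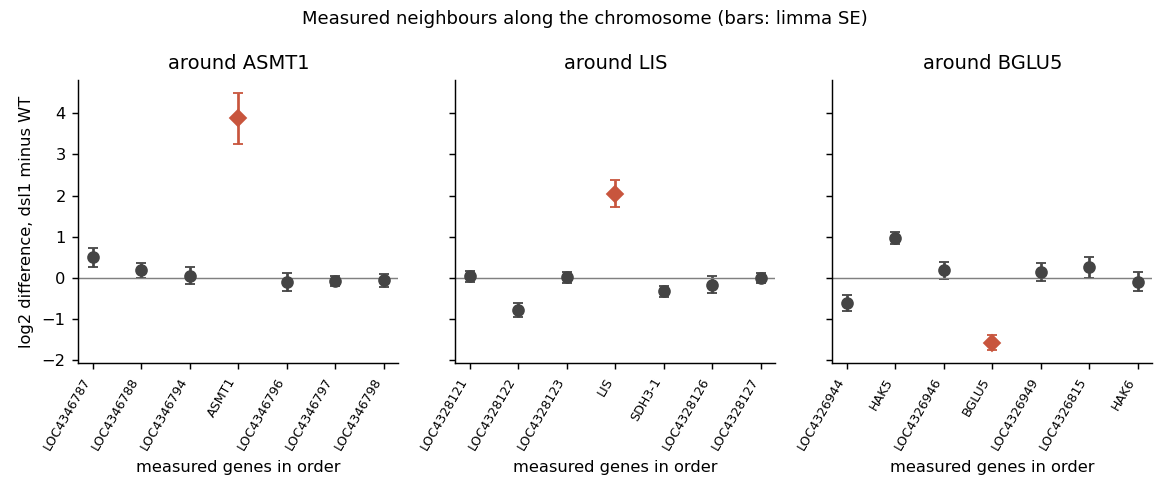
Log2 difference between dsl1 and WT (vertical axis, bars are the limma SE, n = 3 each) of ASMT1, LIS and BGLU5 (diamonds) and the 3 nearest measured genes on each side in chromosome order (horizontal axis, not to scale). No neighbour differs by more than 0.98 in either direction.

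The genes whose pattern was most like each of the 3 were taken by Pearson's r over the 6 arrays among 15139 other genes. The arrays fall into the 2 genotypes, and r over so few points is given as a description. It was over 0.9 for 573 genes with ASMT1, 572 with LIS and 274 with BGLU5. LOC4335526, on chromosome 4, had an r of 0.998 with ASMT1 and a difference of like size. It stood at 3.50, 5.82 and 3.54 in WT replicates 1, 2 and 3 and at 8.36, 9.13 and 7.40 in dsl1. Like ASMT1 it was highest within WT in replicate 2 and highest within dsl1 in replicate 2, and its difference of 4.01 was 1.04 times that of ASMT1. After each group's mean was subtracted the r between them was 0.991. The other genes among the 5 most correlated with ASMT1 had 0.942 to 0.995 by the same measure. All were picked by r over these same arrays, so a shared replicate order follows from the choice. LOC4335526 carries no symbol, lay in the dimmest 20% of clusters on 2 WT arrays, and was named after its values were seen, as were LOC4345539 and LOC4351637.

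The other close matches of ASMT1 had far smaller differences. LOC4345539 had the highest r, 0.999, with a difference of 0.48. HO1, also listed as SE5, the heme oxygenase that makes the phytochrome chromophore, had an r of 0.994, at 7.97 ± 0.17 in WT against 8.46 ± 0.113 in dsl1. CASPL4B4, a membrane protein gene of the casparian strip-like family, and LA, the LAZY1 gene of shoot gravitropism, had r of 0.985 and 0.978 and differences of 0.68 and 0.51.

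The 5 genes most like LIS had r of 0.994 to 0.999 and no symbol, and the first was LOC4351637. Of those with a symbol, STLP1 had an r of 0.99 and a difference of 0.82. SUT4, a sucrose transporter gene, and C3H67, of a zinc-finger family, had r of 0.989 and 0.987 and differences of 0.22 and 0.41. For BGLU5 the kinesin gene KIN14D had an r of 0.995, at 4.20 ± 0.0452 in WT against 3.75 ± 0.0954 in dsl1. The clusters named for the glutelin gene GluB5 and for atpI, a chloroplast gene of the ATP synthase, had r of 0.98 and 0.973 and differences of -0.42 and -0.14. By cluster number, which runs along the chromosomes, the 20 nearest named clusters held 0 of the gene's own chromosome in either case, so these names are uncertain. For atpI the r was 0.295 once group means were subtracted, against 0.978 for GluB5.

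**Figure D5:**
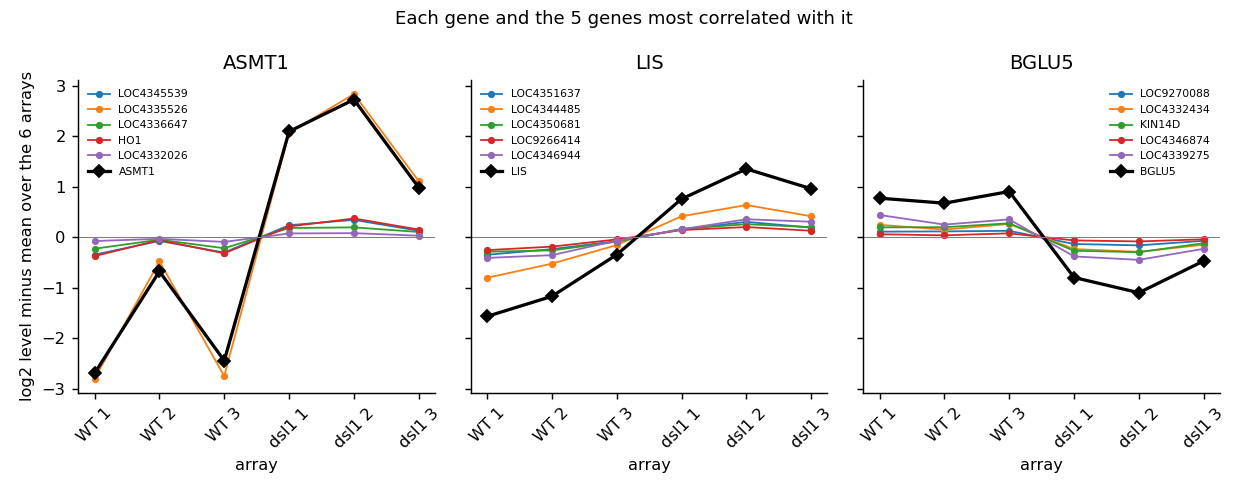
Log2 level minus the gene's mean over the 6 arrays (vertical axis) for ASMT1, LIS and BGLU5 in black and the 5 genes most correlated with each, by array (horizontal axis). Lines only join the points of 1 gene. LOC4335526 follows ASMT1 in size as well as shape, and the other genes plotted have smaller differences than the gene they follow.

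Markers of the tissue were also read on these arrays. The 3 measured meristem genes, OSH1, OSH15 and OSH71, and the 6 leaf primordium genes, YAB1, YAB2, YAB3, YAB4, YAB7 and DL, were above the dimmest 20% on all 6 arrays. None of them was called in limma. The array medians were 5.30 to 5.40, and 2 meristem genes averaged below them. OSH1 was at 4.93 in WT and 5.08 in dsl1, and OSH71 at 4.29 and 4.86. OSH71, OSH15 and OSH1 were at 0.57, 0.35 and 0.15, and 2 of the 3 had an unadjusted p under 0.05 (66.7%, against 9.46% of all genes on the higher side). The log2 of their summed level was 6.42 to 6.64 in WT and 6.56 to 7.02 in dsl1. For the leaf primordium genes it was 9.26 to 9.54 and 9.21 to 9.40, and the 6 genes differed by -0.25 to 0.11.

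Markers of other tissues showed 0 calls in limma. The 4 green leaf genes had a summed level of 11.33 to 11.56 in WT and 10.91 to 11.42 in dsl1 on the log2 scale, with 1 higher and 3 lower. The 6 seed genes had 8.41 to 8.57 and 8.26 to 8.45, with 1 higher, 5 lower and 2 of the lower at an unadjusted p under 0.05 (33.3%, against 5.52% of all genes). These were the clusters named GluB5 and GLUA1, at -0.42 and -0.40, whose numbers on the array lie among those of chromosomes 11 and 2, while the reference puts the genes on chromosomes 2 and 1. They may be misnamed. GLUB2 lay in the dimmest 20% on all 6 arrays, and GLUA3 and RA14 on 5. For 12 genes of lignifying tissue it was 11.31 to 12.04 in WT and 10.81 to 11.19 in dsl1, without overlap, with 6 higher and 6 lower and 3 of the lower at an unadjusted p under 0.05 (25.0%, against 5.52%). The median difference of the 12 was -0.00063. The laccase LAC20 differed by -2.27 and LAC7 by -1.03, with limma adjusted p of 0.326 and 0.404. LAC7 was the brightest of the 12 and so weighs most in the summed level. The cellulose synthase genes CESA4 and CESA9 were on the higher side, at 0.146 and 0.155, with limma adjusted p of 0.731 and 0.70. LAC18, at -0.49, and LAC15 were in the dimmest 20% on all 6 arrays. The laccase LAC24 was at 4.10 ± 0.0725 in WT and at 5.11, 7.22 and 4.26 in dsl1 (adjusted p = 0.467). The part of these tissue markers in the levels of ASMT1, LIS and BGLU5 was not tested.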

How the data were processed

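The authors deposited log2 expression values for 54922 transcript clusters on 6 arrays. The submitters' processing notes name Affymetrix Expression Console 1.3. Its background correction and normalisation, and the genome build, are not stated in these sources. The log2 values were used without further scaling, and array medians were 5.30 to 5.40. No pair of arrays shared more than 34 equal values, so each array counted as 1 sample. Groups came from the sample titles.

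Clusters were named where the platform's gene table gives exactly 1 gene (15829 clusters, 15140 genes), through the reference of assembly ASM3414082v1, used for names, chromosomes and gene order. The cluster with the highest mean stood for a gene. Names were checked against the chromosomes of the 20 nearest named clusters by cluster number, a check added after the data were seen. Those of ASMT1, LIS, BGLU5, their neighbours and all beta-glucosidases lay near clusters of the gene's own chromosome. All clusters were fitted with limma 3.58.1 in R 4.3.3 (lmFit, eBayes, 2-sided). A call needed a limma p, adjusted by Benjamini-Hochberg across every cluster, under 0.05. The fit was tested on simulated data. No gene set test was run.

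The genes described and the lists were chosen with earlier results of these data known. From each list the text names up to 4 genes, those called or with the smallest unadjusted p. It also draws on the 3 nearest measured neighbours on each side, any of the 5 most correlated genes with a symbol, and the 3 most correlated with one. Genes named outside this rule were named after their values were seen: those the text marks so, all 6 leaf primordium genes, and KSL3, KSL6, KSL10, LAC15, GLUB2 and GLUA3 for being dim. So were LOC4345762, CESA4, CESA9, BGLU20 and BGLU24. Lists were matched by symbol or synonym alone. Alternatives were quantile normalisation, median centring, a filter on dim clusters, clusters with 1 gene only, other variance priors, array weights, a block on the replicate number, a fold minimum, and each array left out.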

Additional observations from a re-analysis of the deposited data

How the results depend on the processing

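Under the 14 alternatives run for each, the differences of ASMT1, LIS and BGLU5 kept their direction and moved by less than 1 SD pooled over both genotypes (0.998, 0.490 and 0.237). A variance trend, a robust prior, the replicate block and fewer clusters leave a difference as it is by construction, and genes whose groups do not overlap keep their sign when an array is left out. With 1 array left out, ASMT1 ranged from 3.48 to 4.50, LIS from 1.78 to 2.39 and BGLU5 from -1.73 to -1.42. Each has 1 cluster, so no mean over several could be formed, and the comparison of protein sequences and promoters was not run. The counts over all clusters, 8 higher and 6 lower, became 59 and 16 when only clusters with 1 gene were fitted. With the replicate number as a block they were 1 and 0, with 5220 clusters at an unadjusted p under 0.05 in limma. Over all clusters, the deviations of same-numbered arrays correlated at -0.125 to -0.052. The sample titles do not say whether the numbers pair the samples, and 3 arrays a genotype cannot settle it. With 1 array left out, both counts ranged from 0 to 4, and without WT replicate 3 or dsl1 replicate 1 both were 0 (6033 and 4908 clusters had an unadjusted p under 0.05 in limma). The median difference of the 12 lignifying genes, -0.00063, turned positive on quantile normalisation (0.030), on median centring (0.0055) and without the dimmest clusters (0.124), and ranged from -0.024 to 0.049 with 1 array left out. With 1 array left out the medians ranged from 0.22 to 0.40 for the beta-glucosidases (0.33 on quantile normalisation), from 0.064 to 0.27 for the terpene synthases, from 0.28 to 0.68 for the jasmonate genes, from -0.16 to -0.0036 for the phenylpropanoid genes, and from -0.35 to -0.11 for the seed genes (-0.40 without the dimmest clusters). Over the list medians, 66 alternative values stayed within the spread between arrays, 15 moved beyond it and 7 changed sign. Except where an array was left out or clusters were dropped, the cause of these shifts was not tested.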
